A study of Homo sapiens with 13 samples.

Results

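Retinoic acid genes were followed through an in vitro model of human germ cell development. They comprised the transporter STRA6, the binding proteins CRABP1 and CRABP2, the enzymes ALDH1A2 and DHRS3, the clearing enzymes CYP26A1 and CYP26B1 and the receptor RARB. Of these 8 genes, 7 stood among the 9706 genes listed in the deposited tables, and CRABP2 was not analysed here. The 8 were chosen by name for their role, with earlier results of these data known, as were the gene lists used below. The tables list genes that differed from 4i ESC in at least 1 of the study's comparisons. A comparison with 4i ESC is therefore not independent of the listing, and adjusted p-values cover these preselected genes only. CYP26A1, DHRS3, RARB and STRA6 were listed only through the study's comparison of DM+PGCLC, described below, with 4i ESC. Differences of these genes between DM+PGCLC and any other group are therefore not independent of the listing either. CYP26B1 was listed only through DM+PGCLC and d8 DZ+PGCLC, also described below, and the same limit holds for its differences in those groups.

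RNA was sequenced in bulk from 10 libraries in 5 groups of 2. The starting 4i ESC are WIS2, a human embryonic stem cell line, here with NANOS3-tdTomato and DMRT1-Venus reporters, cultured over mouse feeders with LIF, bFGF, TGFβ and inhibitors of GSK3 (3 µM), ERK (1 µM), p38 (5 µM) and JNK (5 µM), and sorted for the surface enzyme TNAP. Primordial germ cell-like cells, here N3+PGCLC, were made from them with BMP2 (500 ng/ml), SCF (100 ng/ml), EGF (50 ng/ml) and a ROCK inhibitor (10 µM), and they carried TNAP and NANOS3 at the sort. DM+PGCLC had the same start, but from day 3 received activin A (100 ng/ml) and retinoic acid (20 µM) in place of BMP2, with SCF and EGF, over 6 additional days, and the labels give them the same sort. The DZ+PGCLC came from a different reporter line, DAZL-tdTomato, in which SOX17 is switched on by dexamethasone and DMRT1 by doxycycline. After 1 day in the first cytokines with dexamethasone, these transgenic cells also went to activin A and 20 µM retinoic acid, with both inducers, and DAZL-positive cells were collected at day 4, as d4 DZ+PGCLC, and at day 8, as d8 DZ+PGCLC. The labels give 2 days after that switch for both collections. With the 1 day before it, that falls short of day 4 and cannot hold for day 8. Retinoic acid was therefore present in 6 libraries (DM+PGCLC and both DZ+PGCLC groups) and not added in 4, and its effect cannot be told apart from that of activin A, the loss of BMP2 and the time in culture. DM+PGCLC and DZ+PGCLC further differ in reporter line, transgenes, inducers, days and sort.

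Retinoic acid is made from vitamin A in 2 steps. Retinol enters through STRA6, is oxidised to retinal and, by the retinaldehyde dehydrogenases such as ALDH1A2, to retinoic acid, while DHRS3 turns retinal back into retinol. CRABP1 binds retinoic acid in the cytosol, and the cytochrome P450 enzymes CYP26A1 and CYP26B1 oxidise it for removal. In the nucleus it binds receptors such as RARB, which pair with RXR proteins on DNA. CYP26A1, DHRS3, RARB and STRA6 are classical genes switched on by retinoic acid, so that the pathway feeds back on itself. In the mouse gonad, retinoic acid starts meiosis in female germ cells, and Cyp26b1 in the soma of the testis removes it.

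The DNA elements that retinoic acid receptors are best known for are direct repeats of a 6-base core motif, with 5, 2 or 1 bases between the copies. The consensus core AGGTCA, the variant AGTTCA, the variant GGGTCA and the variant GGTTCA were searched on both strands in RefSeq windows of GRCh38.p14 that run from 250 bases before to 50 after each start site. All 7 genes had a window, 18 in all, and repeats stood in 2 of them, 1 of CYP26A1 and 1 of RARB, both spaced by 5. These 2 windows are shown because they hold a repeat. Each window is printed on the strand of its gene, with the cores in capitals.
CYP26A1, chr10:93073643-93073942, plus strand: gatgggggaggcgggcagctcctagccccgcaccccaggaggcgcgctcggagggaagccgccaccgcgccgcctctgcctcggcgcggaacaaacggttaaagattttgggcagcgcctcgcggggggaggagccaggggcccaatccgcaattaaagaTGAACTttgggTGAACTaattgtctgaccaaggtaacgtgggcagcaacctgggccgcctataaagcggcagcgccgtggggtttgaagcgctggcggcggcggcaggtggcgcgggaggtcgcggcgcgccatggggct
RARB, chr3:25428013-25428312, plus strand: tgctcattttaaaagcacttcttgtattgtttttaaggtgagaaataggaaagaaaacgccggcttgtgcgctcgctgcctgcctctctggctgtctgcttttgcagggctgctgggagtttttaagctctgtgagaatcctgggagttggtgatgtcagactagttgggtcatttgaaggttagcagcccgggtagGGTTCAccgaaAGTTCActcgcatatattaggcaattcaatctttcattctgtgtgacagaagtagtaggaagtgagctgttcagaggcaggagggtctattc
In the CYP26A1 window the repeat is on the opposite strand, where it reads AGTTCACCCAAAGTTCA, and its first base as printed lies 90 bases before the start site. The RARB repeat reads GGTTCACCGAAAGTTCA and begins 53 bases before a start site inside the gene. Of all 35116 windows, 0.0883% held these cores spaced by 5, and 0.131% and 0.0399% held them spaced by 1 and by 2. The same letters were not found in the windows of ALDH1A2, CRABP1, CYP26B1, DHRS3 and STRA6. A match of letters is a description of the sequence, and receptor binding was not measured in the data used here.

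The levels given here are log2(RPKM + 0.1) for each library, where RPKM is reads scaled by gene length and by the reads of the library. A log2 difference is the difference between group means, with its standard error (SE), 2 libraries a group. Genes were called at an adjusted p under 0.05 in limma and a log2 difference over 1 in size. Depth relative to the first 4i ESC library ran from 0.665 to 1.14, absolute depth is unknown, and replicate libraries had a Pearson r of 0.966 to 0.984 across genes, which are not independent of each other. In bulk RNA, fewer cells with a transcript and less transcript per cell cannot be told apart. The study's methods call the replicates biological, but whether same-numbered libraries share a source is not stated.

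Germ cell markers matched the labels in part. The 7 early germ cell genes summed to 52.6 and 59.0 RPKM in 4i ESC, 295 and 513 in N3+PGCLC, 555 and 664 in DM+PGCLC and 119 to 223 in DZ+PGCLC. In DZ+PGCLC most of that sum was SOX17, at 108 and 83.5 RPKM on day 4 and 202 and 189 on day 8. That line also carries SOX17 as a dexamethasone-inducible fusion transgene, whose transcripts were not told apart here from endogenous ones. TFAP2C and KIT were called below 4i ESC in both collections. In the DZ+PGCLC libraries NANOS3 was at 0 to 0.256 RPKM, against 9.41 to 55.4 in N3+PGCLC and DM+PGCLC, and pluripotency genes summed to 27.4 to 44.7 RPKM, against 573 or more elsewhere. DMRT1, the doxycycline-induced transgene of that line, had log2 levels of at least 12.01 there, above 6.35 and 6.38 in DM+PGCLC. The second N3+PGCLC library stood apart from the first in other lineages. Its 6 listed mesoderm markers of 9 summed to 324 RPKM against 46.3, and its 7 listed endoderm markers of 9 to 448 against 75.5, where the other 8 libraries had 1.02 to 21.8 and 3.14 to 35.8. All 6 amnion and trophoblast markers were listed and summed to 141 and 172 RPKM in N3+PGCLC, 41.2 and 26.6 in DM+PGCLC and 4.10 to 27.7 elsewhere, and so moved with the step from N3+PGCLC to DM+PGCLC. The part of these markers in the results was not tested. For the 7 retinoic acid genes, values for N3+PGCLC are given for each library, and without the second where that ends a call. For other genes, results with a library left out were not recorded. Stroma markers, of which 8 of 8 were listed, summed to 481 and 885 RPKM in 4i ESC and to 45.5 to 523 elsewhere.

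**Figure D1:**
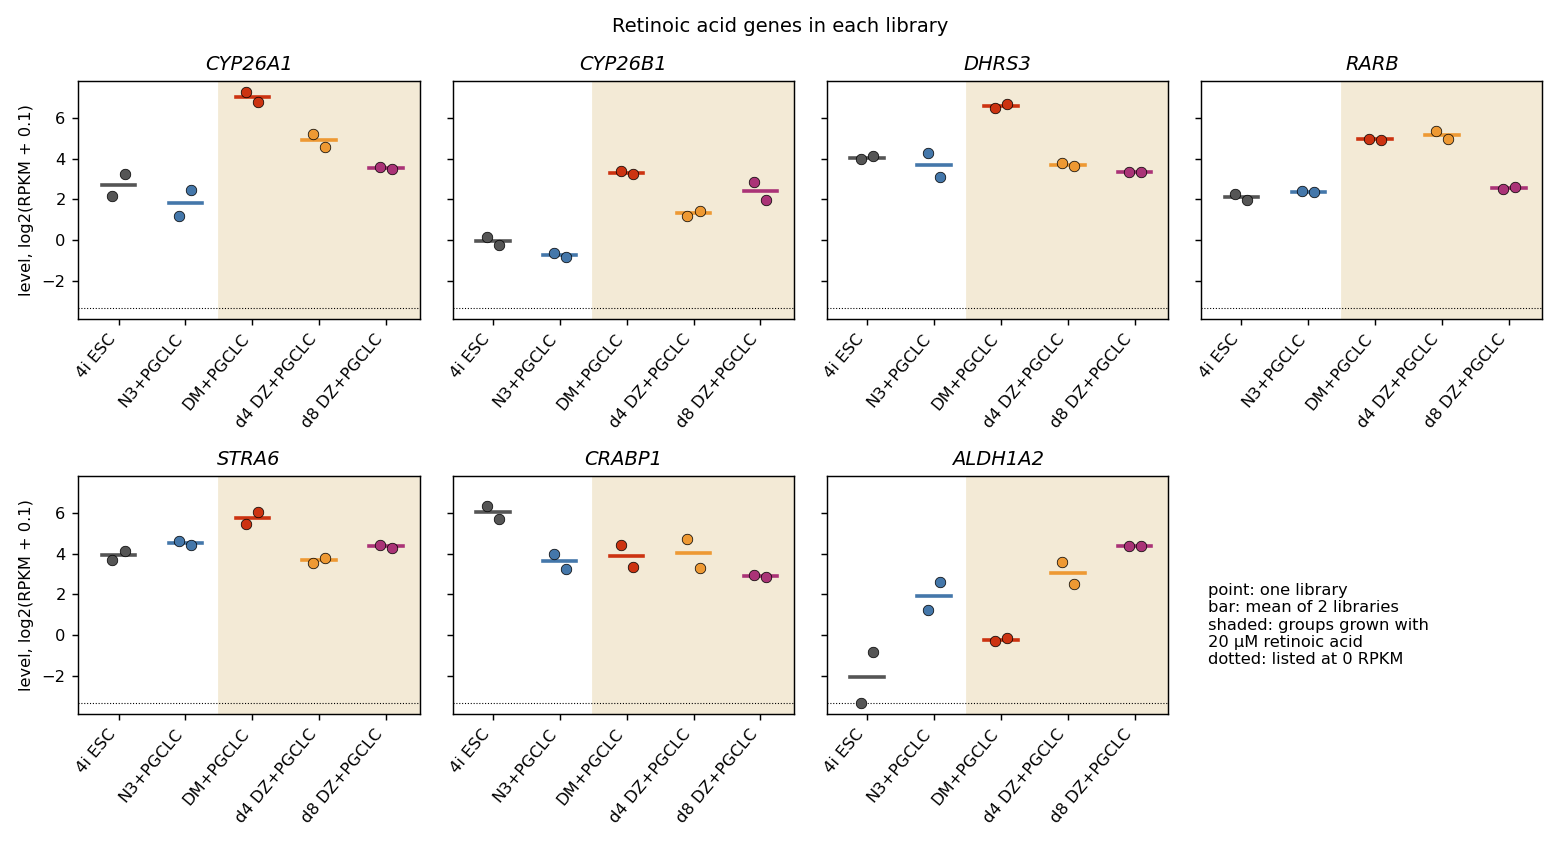
Level of the 7 listed retinoic acid genes, as log2(RPKM + 0.1), in each of the 10 libraries, with points for libraries, bars for the mean of 2 and shading for the groups given retinoic acid. CYP26A1, CYP26B1 and RARB were higher in all 6 shaded libraries than in all 4 others, CRABP1 was highest in 4i ESC, and ALDH1A2 was low in DM+PGCLC and high in d8 DZ+PGCLC.

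Both clearing enzymes and the receptor were higher in every library with retinoic acid than in any without. The log2 level of CYP26A1 was 3.50 to 7.27 with it and 1.17 to 3.26 without, that of CYP26B1 was 1.17 to 3.40 and -0.85 to 0.13, and that of RARB was 2.52 to 5.36 and 1.99 to 2.39. For RARB the gap between the 2 sets was thus 0.13 wide on the log2 scale. These are 3 of 7 genes, beside 6.40% of all listed genes (621 of 9706) with all 6 libraries above all 4. Of them, CYP26A1 and RARB were listed only through DM+PGCLC, and CYP26B1 only through DM+PGCLC and d8 DZ+PGCLC. These are groups with retinoic acid, so the count is not independent of the listing. None of the 7 had all 6 below all 4, which held for 8.09% of listed genes. ALDH1A2, DHRS3, CRABP1 and STRA6 overlapped between the 2 sets of libraries.

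When cells passed from N3+PGCLC to DM+PGCLC, which puts retinoic acid and activin A in place of BMP2, 5 of the 7 genes were called higher and 0 lower, beside 13.9% and 12.1% of all listed genes. The genes that rose were CYP26A1, CYP26B1, DHRS3, RARB and STRA6. The median log2 difference of the 7 was 2.57, and that of all listed genes was 0.00. All 5 genes that rose were listed through DM+PGCLC and none through N3+PGCLC. Neither the count nor this median is therefore independent of the listing. The other 2 genes were not called, ALDH1A2 with a log2 difference of -2.17 and CRABP1 with 0.26. At an unadjusted p under 0.05 in limma 6 of the 7 passed, ALDH1A2 being the added one.

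The largest of these changes was in CYP26A1, the principal retinoic acid hydroxylase of the early embryo. Its log2 level was 1.17 and 2.46 in N3+PGCLC and 7.27 and 6.76 in DM+PGCLC, beside 2.15 and 3.26 in 4i ESC. The groups did not overlap, and DM+PGCLC was higher by 5.19 on the log2 scale (SE 0.50, adjusted p = 0.000549), 36.6-fold on this scale. In d4 DZ+PGCLC the log2 level was 5.22 and 4.57, and in d8 DZ+PGCLC 3.58 and 3.50. So the order was DM+PGCLC, d4 DZ+PGCLC, d8 DZ+PGCLC, 4i ESC and N3+PGCLC, and only the last pair overlapped. The d8 DZ+PGCLC level was 3.47 below that of DM+PGCLC on the log2 scale (log2 difference -3.47, SE 0.50, adjusted p = 0.000718), 11.1-fold lower. Against 4i ESC it was not called, at 0.84 (SE 0.50, adjusted p = 0.178), and neither was the step from d4 to d8 DZ+PGCLC, at -1.35 (adjusted p = 0.0788). That step was called when genes under a mean of 1 RPKM were left out (adjusted p = 0.0351, with a range of 0.0351 to 0.295 over the alternatives).

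CYP26B1, the related hydroxylase best known from the mouse testis, was lower than CYP26A1 in every library. Its log2 level was -0.64 and -0.85 in N3+PGCLC and 3.40 and 3.22 in DM+PGCLC, a log2 difference of 4.05 (SE 0.37, adjusted p = 0.000414). In 4i ESC it was 0.13 and -0.25. It was 1.17 and 1.44 in d4 DZ+PGCLC and 2.87 and 1.99 in d8 DZ+PGCLC, so that here the later group had the higher values. Day 8 exceeded day 4 by 1.13 on the log2 scale, which was not called (SE 0.37, adjusted p = 0.0526). With low genes left out the adjusted p was 0.0441 (0.0385 to 0.251 over the alternatives) and the difference was called. The d8 DZ+PGCLC level was called above that of 4i ESC, with a log2 difference of 2.50 (SE 0.37, adjusted p = 0.000839), and was 0.87 below that of DM+PGCLC (log2 difference -0.87, adjusted p = 0.0683, not called). From RPKM, CYP26A1 made up 93.7% and 92.2% of the summed RPKM of both enzymes in DM+PGCLC, 94.6% and 90.1% in d4 DZ+PGCLC and 62.2% and 74.3% in d8 DZ+PGCLC.

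DHRS3, the retinal reductase, was high in DM+PGCLC only. Its log2 level there was 6.49 and 6.69, and in the other 8 libraries it lay between 3.08 and 4.26. The 2 N3+PGCLC libraries had 4.26 and 3.08, the lower value in the library with the most mesoderm and endoderm marker RNA, whose part in it was not tested. DM+PGCLC exceeded N3+PGCLC by 2.92 on the log2 scale (SE 0.33, adjusted p = 0.001). Fitted on these 4 libraries alone, the adjusted p was 0.0638 (5.52e-05 to 0.0638 over the alternatives) and the call was lost. In d4 and d8 DZ+PGCLC, where retinoic acid was also present, DHRS3 had log2 levels of 3.78, 3.63, 3.35 and 3.32, none above the 3.99 and 4.10 of 4i ESC. The d8 DZ+PGCLC mean was 9.57-fold below that of DM+PGCLC, a log2 difference of -3.26 (SE 0.33, adjusted p = 0.000146).

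RARB, a nuclear receptor for retinoic acid, was high in DM+PGCLC and d4 DZ+PGCLC alike. Its log2 level was 4.95 and 4.93 in DM+PGCLC and 5.36 and 4.95 in d4 DZ+PGCLC, and these ranges overlapped. In 4i ESC it was 2.24 and 1.99, in N3+PGCLC 2.39 and 2.35. In d8 DZ+PGCLC it was 2.52 and 2.60, just above N3+PGCLC. RARB was the only one of the 7 genes called between the DZ+PGCLC collections, where 0 were called higher and 1 lower beside 15.4% and 8.30% of all listed genes. At an unadjusted p under 0.05 in limma, 4 of the 7 passed, with CYP26A1, CYP26B1 and STRA6 beside it. RARB fell from d4 to d8 by 2.59 on the log2 scale (log2 difference -2.59, SE 0.18, adjusted p = 0.000326), 6.03-fold, and was called in every one of 9 alternatives. DM+PGCLC exceeded N3+PGCLC by 2.57 (SE 0.18, adjusted p = 0.000198), and d8 DZ+PGCLC did not pass the test against 4i ESC at 0.45 (SE 0.18, adjusted p = 0.0606).

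STRA6, the retinol transporter at the cell surface, had the narrowest range of the 7, from 3.54 to 6.03 on the log2 scale. Its log2 level was 3.69 and 4.15 in 4i ESC, 4.63 and 4.44 in N3+PGCLC, 5.48 and 6.03 in DM+PGCLC, 3.54 and 3.81 in d4 DZ+PGCLC and 4.45 and 4.26 in d8 DZ+PGCLC. DM+PGCLC stood above all other libraries, and the d4 DZ+PGCLC and 4i ESC ranges overlapped. DM+PGCLC exceeded N3+PGCLC by 1.22 on the log2 scale (SE 0.23, adjusted p = 0.00696), 2.33-fold. Without the second DM+PGCLC library the log2 difference was 0.94, and fitted on 4 libraries the adjusted p was 0.0779 (0.00211 to 0.0779 over the alternatives), and either way the call was lost.

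**Figure D2:**
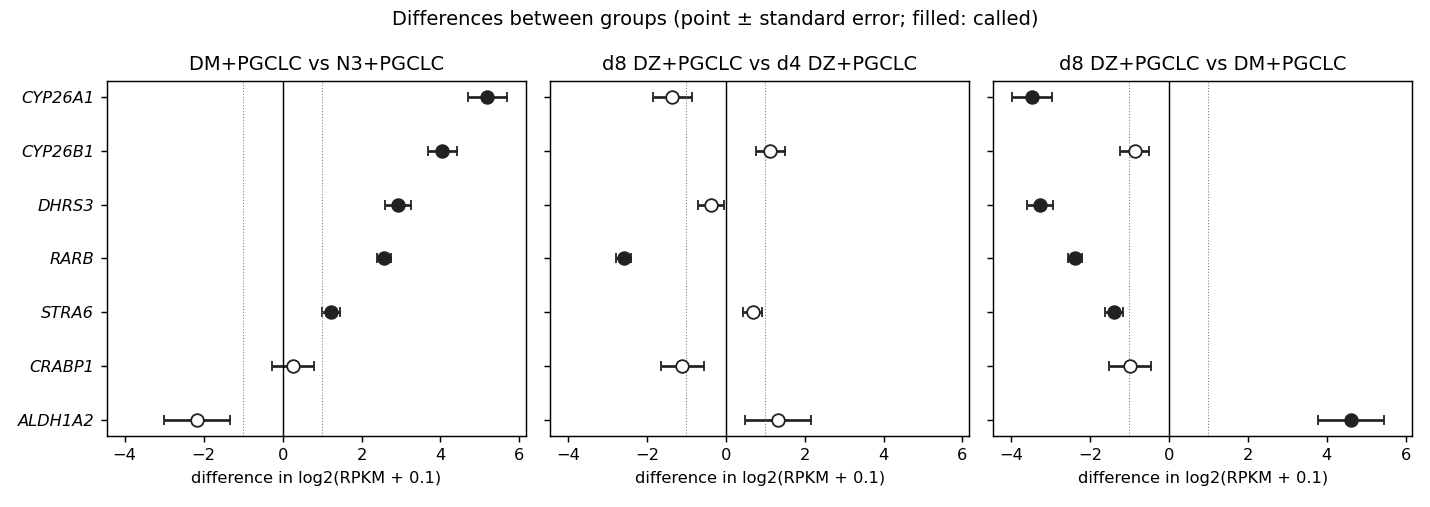
Difference of group means in log2(RPKM + 0.1) for the 7 genes in 3 comparisons, each point with its standard error, filled where called, with dotted lines at a difference of 1 in either direction. In DM+PGCLC against N3+PGCLC 5 genes were called higher, between d4 and d8 DZ+PGCLC RARB alone was called, and in d8 DZ+PGCLC against DM+PGCLC 4 genes were called lower and ALDH1A2 higher.

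CRABP1, the cytosolic retinoic acid-binding protein, was highest in 4i ESC. Its log2 level was 6.33 and 5.72 there and 2.85 to 4.74 in all 8 other libraries. The groups after 4i ESC were spread and mostly overlapped, with 4.00 and 3.27 in N3+PGCLC, 4.43 and 3.36 in DM+PGCLC, 4.74 and 3.29 in d4 DZ+PGCLC and 2.97 and 2.85 in d8 DZ+PGCLC. It was called lower than in 4i ESC in all 4 comparisons, with log2 differences of -2.39 in N3+PGCLC, -2.13 in DM+PGCLC, -2.02 in d4 DZ+PGCLC and -3.12 in d8 DZ+PGCLC (SE 0.54 each, adjusted p = 0.0133, 0.0123, 0.0164 and 0.00174). The first 3 calls each rested on single libraries. Without the first 4i ESC library their adjusted p was 0.0825, 0.0759 and 0.0939, and without the second library of the group itself it was 0.0677, 0.0846 and 0.0932. Fitted on 4 libraries the N3+PGCLC and d4 DZ+PGCLC calls were lost as well (adjusted p = 0.057 and 0.0888), so that 6, 7 and 6 of 9 alternatives kept the call, while that in d8 DZ+PGCLC stood in all 9. Its level did not separate libraries with and without retinoic acid, and between DM+PGCLC and N3+PGCLC the log2 difference was 0.26 (SE 0.54, adjusted p = 0.767).

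ALDH1A2, the main retinoic acid-producing enzyme of the early embryo, took another course. It was listed at 0 in the first 4i ESC library and at 0.476 RPKM in the second, 2.29 and 6.09 RPKM in N3+PGCLC, 0.711 and 0.799 in DM+PGCLC, 11.8 and 5.69 in d4 DZ+PGCLC and 20.9 and 20.6 in d8 DZ+PGCLC. On the log2 scale the levels were -3.32, -0.80, 1.26, 2.63, -0.30, -0.15, 3.57, 2.53, 4.39 and 4.37 in the same order. Thus d8 DZ+PGCLC stood above every other library, d4 DZ+PGCLC overlapped N3+PGCLC, and DM+PGCLC lay below both. The log2 difference between d8 DZ+PGCLC and DM+PGCLC was 4.61 (SE 0.83, adjusted p = 0.00199), 24.4-fold. Against 4i ESC the log2 difference was 6.44 in d8 DZ+PGCLC (SE 0.83, adjusted p = 0.000472) and 5.11 in d4 DZ+PGCLC (adjusted p = 0.00177), and these rest on a group with 1 library at 0. With a pseudocount of 1 RPKM they were 4.16 and 2.93. In N3+PGCLC it was 4.00 (SE 0.83, adjusted p = 0.00982), a call that was lost without the second N3+PGCLC library (log2 difference 3.32, adjusted p = 0.0508, with 0.00144 to 0.118 over the alternatives). That library had the higher level and also the higher mesoderm and endoderm marker sums, whose part in it was not tested. ALDH1A2 was lower in DM+PGCLC than in N3+PGCLC by 2.17 on the log2 scale (log2 difference -2.17, SE 0.83, adjusted p = 0.0831), which was not called, though it was with a pseudocount of 1 (adjusted p = 0.0393) or with low genes left out (adjusted p = 0.0328, 0.0328 to 0.338 over the alternatives).

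Levels of the clearing enzymes and of ALDH1A2 can be set side by side, since RPKM is per length. CYP26A1 exceeded ALDH1A2 by 7.57 and 6.92 on the log2 scale in DM+PGCLC, by 1.65 and 2.04 in d4 DZ+PGCLC and by 5.47 and 4.06 in 4i ESC, where the first value has ALDH1A2 at 0. They were nearly level in N3+PGCLC, with log2 differences of -0.08 and -0.16, and in d8 DZ+PGCLC ALDH1A2 was the higher, with -0.81 and -0.87. The summed RPKM of CYP26A1 and CYP26B1 was 164 and 118 in DM+PGCLC, 39.4 and 26.3 in d4 DZ+PGCLC, 19.1 and 15.1 in d8 DZ+PGCLC, and 2.70 to 10.2 in the libraries without retinoic acid. ALDH1A3, another producing enzyme, is left out of these differences. It was at 9.87 and 6.86 RPKM in 4i ESC and 2.49 and 1.58 in DM+PGCLC, above ALDH1A2 in both groups. In the first 4i ESC library it also exceeded CYP26A1, which was at 4.34 RPKM. It was below ALDH1A2 in both DZ+PGCLC groups and in the second N3+PGCLC library, and above it in the first. All of these are transcript levels and not enzyme activities.

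**Figure D3:**
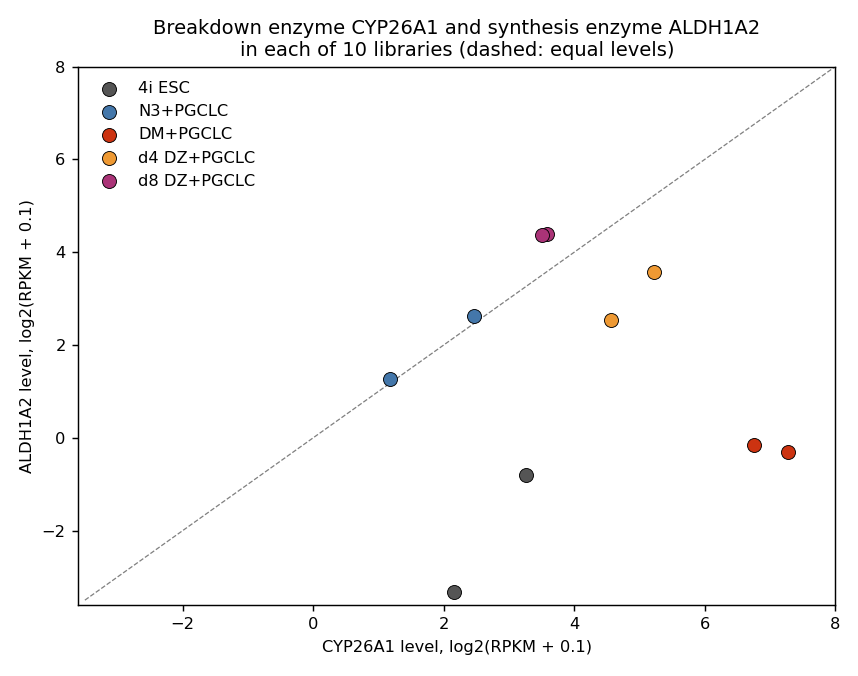
Level of ALDH1A2 against that of CYP26A1, both as log2(RPKM + 0.1), in each of the 10 libraries, coloured by group, with a dashed line at equal levels. The 2 DM+PGCLC libraries lie far below the line, with CYP26A1 higher by 7.57 and 6.92, and the 2 d8 DZ+PGCLC libraries lie above it, with log2 differences of -0.81 and -0.87.

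Against 4i ESC, the group all comparisons share as control, the calls of the 7 genes were as follows. In N3+PGCLC 1 was called higher (ALDH1A2) and 1 lower (CRABP1), beside 13.8% and 12.3% of listed genes. In DM+PGCLC 5 were called higher and 1 lower, beside 23.0% and 21.1%. The 5 were CYP26A1 with a log2 difference of 4.31 (SE 0.50, adjusted p = 0.000443), CYP26B1 with 3.37 (SE 0.37, adjusted p = 0.000337), RARB with 2.83, DHRS3 with 2.54 and STRA6 with 1.83. In d4 DZ+PGCLC 4 were called higher and 1 lower, beside 17.3% and 24.6%. RARB had a log2 difference of 3.04 there (SE 0.18, adjusted p = 3.76e-05), CYP26A1 2.19 (SE 0.50, adjusted p = 0.00851) and CYP26B1 1.37 (SE 0.37, adjusted p = 0.0168). The calls of both CYP26 genes in d4 DZ+PGCLC were lost when only the 4 libraries were fitted (adjusted p = 0.0532 and 0.0512), that of CYP26A1 also without the first library of either group, and that of CYP26B1 also without the second of either or with a pseudocount of 1. In d8 DZ+PGCLC 2 were called higher (CYP26B1 and ALDH1A2) and 1 lower (CRABP1), beside 28.5% and 27.4%.

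Between d8 DZ+PGCLC and DM+PGCLC, both cultured with 20 µM retinoic acid, 1 gene was called higher and 4 were called lower, beside 28.1% and 27.5% of all listed genes. ALDH1A2 was the higher, and CYP26A1, DHRS3, RARB and STRA6 were the lower. These lower genes are those listed only through DM+PGCLC against 4i ESC, so their count is not independent of the listing. STRA6 had a log2 difference of -1.40 (SE 0.23, adjusted p = 0.00144). Of all calls, 50.6% were in the higher direction, and 63.9% once libraries were set to equal medians, which moved the median log2 difference of all genes from 0.09 to 0.48. With that scaling STRA6 was at -0.9996 and no longer called, and the other 4 calls stood. The genotypes, inducers, days and sorts of the 2 groups differ and cannot be told apart from each other.

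In the wider pathway, 10 of 16 other genes that bring in, bind or store retinoids were listed. In DM+PGCLC 1 was called higher and 6 lower than in 4i ESC, beside 23.0% and 21.1% of all listed genes, and 0 were called higher and 4 lower in DM+PGCLC against N3+PGCLC, beside 13.9% and 12.1%, with a median log2 difference of -0.88 beside 0.00 for all genes. The 4 were LRP2, a receptor that takes up retinol-binding protein (log2 difference -4.13, SE 0.54), BCO2, which cleaves carotenoids (-2.61, SE 0.43), the lipase LPL (-2.16, SE 0.63, adjusted p = 0.0341) and the carrier RBP4 (-1.49, SE 0.47, adjusted p = 0.0448). The last 2 were low. LPL was at 1.14 and 0.356 RPKM in N3+PGCLC and at 0 and 0.183 in DM+PGCLC. RBP4 was at 0.33 and 0.303 RPKM in N3+PGCLC and at 0.118 and 0 in DM+PGCLC. The N3+PGCLC libraries differed in LRP2, with log2 levels of 1.42 and 3.25, the higher in the second. In d8 DZ+PGCLC against DM+PGCLC 3 were higher and 2 lower of 10, shares near the 28.1% and 27.5% of all listed genes. LRP2 was at 4.83, RBP4 at 3.80 and LPL at 2.01, whereas LRAT, which stores retinol as its ester, was at -3.44 (SE 0.50, adjusted p = 0.00071) and the scavenger receptor SCARB1 at -1.74. LRAT had log2 levels of 5.53 and 5.29 in 4i ESC and -0.53 and 0.36 in d8 DZ+PGCLC, with 2.06 to 4.08 between. FABP5, which binds fatty acids and retinoic acid, was called lower than in 4i ESC in all 4 groups. Mean log2 levels of FABP5 were 7.03 in 4i ESC and 4.87, 3.97, 3.95 and 3.56 in N3+PGCLC, DM+PGCLC, d4 and d8 DZ+PGCLC.

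Of 23 retinol and retinal dehydrogenases and reductases, 13 were listed. In DM+PGCLC against N3+PGCLC 2 were called higher, DHRS2 (log2 difference 2.97) and SDR16C5 (2.28), and 3 lower, the retinal reductase RDH12 (-1.99), RDH16 (-1.84) and the alcohol dehydrogenase ADH5 (-1.06), beside 13.9% and 12.1% of all listed genes. In d8 DZ+PGCLC against DM+PGCLC 6 were called higher and 1 lower, beside 28.1% and 27.5% of all listed genes, with a median log2 difference of 0.81 beside 0.09. With libraries set to equal medians the value for all genes was 0.48, and the median of the list was not computed at that setting. The highest of the 6 were ADH1C (5.22, SE 0.65, adjusted p = 0.000352), ALDH8A1 (3.96), RDH8 (3.32) and RDH16 (2.60). SDR16C5 was the lower one at -3.37. RDH8, ADH7 and DHRS9, all among the 6, were at 0 in both DM+PGCLC libraries. They reached at most 1.35, 0.617 and 0.482 RPKM in any library. The d8 DZ+PGCLC libraries were deeper, at 1.14 and 1.12 against 0.781 and 0.843 in DM+PGCLC. They had 381 and 353 listed genes at 0, against 985 and 1036. ADH1C, an alcohol dehydrogenase able to oxidise retinol, reached 214 and 102 RPKM in d4 DZ+PGCLC and 4.84 and 8.12 in d8 DZ+PGCLC, and was listed at 0 in 4 of the 6 others, where it was at most 0.193 RPKM. It shares much of its sequence with its neighbours of the ADH1 cluster, so reads may be split among them. ALDH1A3, another retinoic acid-producing enzyme, was lower than in 4i ESC in every other group. Its mean log2 level was 3.06 in 4i ESC, 1.55 in N3+PGCLC, 1.06 in DM+PGCLC, -0.82 in d4 and 1.03 in d8 DZ+PGCLC, and all 4 log2 differences from 4i ESC, -1.50 to -3.88, were called. RDH10, which oxidises retinol to retinal, was called lower in N3+PGCLC only, at -1.28.

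Of a list of 5 further genes drawn up for retinoic acid breakdown 4 were listed. Of these, CYP26C1 and CYP1B1 rose from N3+PGCLC to DM+PGCLC, beside 13.9% of all listed genes. CYP26C1, the third member of the CYP26 family, was low throughout, with log2 levels of 1.44 and 0.42 in DM+PGCLC and -1.72 to -0.52 elsewhere (log2 difference 2.29, SE 0.55, adjusted p = 0.0171). It was not raised in d4 or d8 DZ+PGCLC, whose d8 mean was lower than that of DM+PGCLC by 1.85 (log2 difference -1.85, SE 0.55, adjusted p = 0.0196). CYP1B1 had log2 differences of 3.67 and -5.07 in these comparisons. It is also on the list of known targets below and so is counted in both, and it is not taken here as a clearing enzyme.

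Among receptors and cofactors 9 of 17 were listed, and RARA alone was called between DM+PGCLC and N3+PGCLC, 1 of 9 genes beside 13.9% of all listed genes called higher. The log2 level of RARA, the most widely expressed retinoic acid receptor, was 2.34 to 3.22 in the 4 libraries without retinoic acid and 4.24 to 4.72 in the 6 with it (DM+PGCLC against N3+PGCLC 1.49, SE 0.30, adjusted p = 0.00809). In d8 DZ+PGCLC it was 4.72 and 4.51, against 4.46 and 4.24 in d4 DZ+PGCLC. RARG was lower than in 4i ESC in DM+PGCLC, at -1.22. The partner receptor RXRA was called higher in DM+PGCLC, d4 and d8 DZ+PGCLC than in 4i ESC and RXRB in DM+PGCLC and d8 DZ+PGCLC, with mean log2 levels of 2.88 rising to 4.56 for RXRA in d8. RXRG was at or under 0.933 RPKM in every library, and the coactivator NCOA2 was lower in d8 DZ+PGCLC than in DM+PGCLC (-1.38, SE 0.21, adjusted p = 0.000955).

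Of 32 genes known as retinoic acid targets, 30 were listed, and 11 were called higher and 4 lower in DM+PGCLC against N3+PGCLC, beside 13.9% and 12.1% of all listed genes, so that the lower share was near the background. The median log2 difference was 1.10, beside 0.00 for all genes. Large changes among them were in CDH5, the endothelial cadherin that also marks migrating germ cells (7.67, SE 0.40, adjusted p = 8.3e-05), the homeobox gene GBX2 (4.47, SE 0.45) and CYP1B1 (3.67), and CDX2, a transcription factor of the gut, was lower (-4.70, SE 0.71). The study itself reports that retinoic acid induced CDH5 in germ cell-like cells, so the place of CDH5 on this list is not independent of this system. CDX2 had log2 levels of 2.28 and 3.95 in N3+PGCLC, the higher value in the library with more endoderm marker RNA, whose part in it was not tested. In d8 DZ+PGCLC against DM+PGCLC 10 were higher and 9 lower of 30, shares near the 28.1% and 27.5% of all listed genes. CDH5 was 9.66 below (log2 difference -9.66, SE 0.40, adjusted p = 7.77e-06), at log2 levels of 6.99 and 7.66 in DM+PGCLC against -2.18 and -2.49 in d8 DZ+PGCLC, and RARRES2, a gene induced by retinoids in skin, was at -6.47, CDX1, a homeobox gene of the posterior body, at -5.04. These are all from the 9 lower genes. The 10 higher ones included MEIS2 (2.62, SE 0.65) and several HOX genes, though HOXB3 was among the lower. STRA8, the retinoic acid-induced gene of meiotic entry, is named here after its values were seen. It was listed at 0 in 9 of 10 libraries and at 0.134 RPKM in the other, a DM+PGCLC library.

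**Figure D4:**
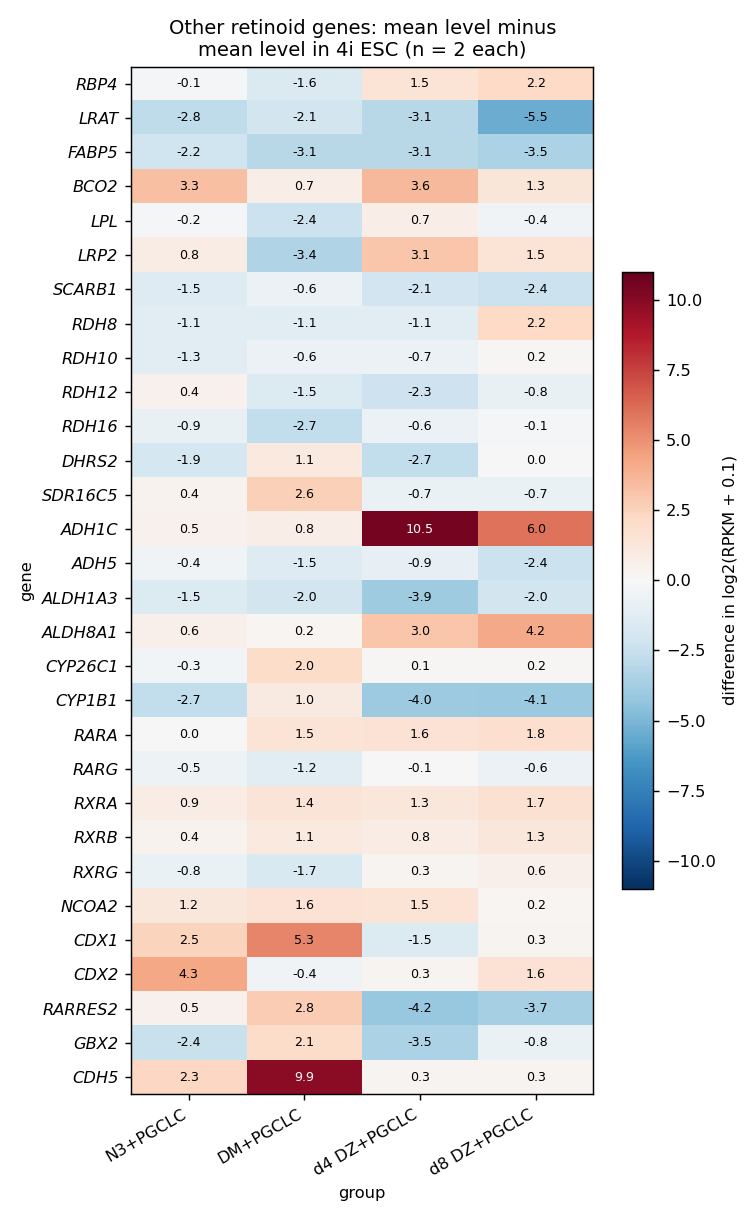
Mean log2(RPKM + 0.1) of other retinoid pathway genes in 4 groups minus the mean in 4i ESC, 2 libraries a group, with rows in the order of uptake, dehydrogenases, breakdown, receptors and targets. FABP5 is lower than 4i ESC in all 4 groups, RARA is higher by 1.49, 1.58 and 1.84 in the 3 groups with retinoic acid, ADH1C is high in DZ+PGCLC and CDH5 in DM+PGCLC.

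The listed genes whose levels followed each of the 7 most closely over the 10 libraries are given as a description. The libraries share groups and depth, and the r is Pearson's. For CYP26A1 they were SUSD1 (r = 0.949), ATP9A and SCNN1D, for CYP26B1 LCN10 (r = 0.97), CAMK2B and ORAI2, and for RARB ANXA13 (r = 0.977), NUCB2 and CFI. For DHRS3 they were ZMIZ2 (r = 0.988), UGCG, which makes glucosylceramide, and KSR2. STRA6 was followed by PIWIL4 (r = 0.983), a PIWI protein of the germ line, SLC30A2, a zinc transporter, and NBPF3, ALDH1A2 by UNC5C (r = 0.968), a netrin receptor, ZSCAN5A and RANBP10, and CRABP1 by CDCA7L (r = 0.952), RASSF4 and PRUNE2. CFI, which encodes complement factor I, had mean log2 levels of -2.90 in 4i ESC, -3.32 in N3+PGCLC, 1.40 in DM+PGCLC, 2.86 in d4 and -1.43 in d8 DZ+PGCLC, a course like that of RARB. Among the 7 themselves the closest pairs were CYP26A1 with RARB (r = 0.84), DHRS3 with STRA6 (r = 0.82) and CYP26A1 with CYP26B1 (r = 0.81), and the most opposed was ALDH1A2 with CRABP1 (r = -0.78).

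In the GENCODE annotation of GRCh38, CYP26A1 (ENSG00000095596) spans chr10:93073475-93077885 on the plus strand and CYP26B1 (ENSG00000003137) chr2:72129238-72147862 on the minus strand. DHRS3 (ENSG00000162496) spans chr1:12567910-12618210 on the minus strand, and RARB (ENSG00000077092) chr3:24687887-25597932 on the plus strand. The other 3 all lie on chromosome 15, ALDH1A2 (ENSG00000128918) at chr15:57953424-58497866 and STRA6 (ENSG00000137868) at chr15:74179466-74212267, both on the minus strand, and CRABP1 (ENSG00000166426) at chr15:78340353-78348225 on the plus strand. The printed windows of CYP26A1 and RARB thus lie inside the annotated spans of these genes.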

How the data were processed

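The authors trimmed reads with Trim Galore, mapped them with STAR to GRCh38.p13 with unique reads kept, fitted protein-coding genes against 4i ESC with edgeR, and deposited log2(RPKM + 0.1) per library, with RPKM from Cufflinks. Libraries were made with a stranded kit after removal of ribosomal RNA. The submitters' processing notes also name HOMER, Bowtie2 2.2.5 and hg38. The deposited columns of the authors' own fold changes and FDR were not used, 8 tables of gene set enrichment were not used, and 3 CUT&RUN samples were not analysed here.

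The union of the 3 deposited gene tables (9706 genes) was fitted in limma (3.58.1, R 4.3.3) with an intensity trend, all 10 libraries and group means (5 residual degrees of freedom). P-values were two-sided and Benjamini-Hochberg adjusted over all listed genes of each of 7 comparisons. Calls needed an adjusted p under 0.05 and a log2 difference over 1. Differences on the log2(RPKM + 0.1) scale understate changes of low genes. The fit was tested on simulated data. Absolute depth is unknown, and relative depth was estimated from the step between low values.

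Alternatives were a pseudocount of 1, a mean of at least 1 RPKM, equal medians, a replicate block, a fit on 4 libraries and leaving out each library. For N3+PGCLC and DM+PGCLC a crossed block was added after seeing the data. The genes and 5 lists were chosen with earlier results of these data known. Of each list, up to 5 called genes with the largest difference were named in DM+PGCLC against N3+PGCLC and in d8 DZ+PGCLC against DM+PGCLC, with the paralogs of the 8 genes and the 3 listed genes most correlated with each. Some genes that this rule names are not reported here. Promoter windows were taken from RefSeq (GRCh38.p14), and gene spans from GENCODE. Versions of STAR and Trim Galore are not given in the sources used here.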

Additional observations from a re-analysis of the deposited data

Results flagged for a closer look

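Differences between time points, or between reporter lines and protocols, that passed the limma test are given here as values. Each is a direct difference between the means of the groups named. Those with DM+PGCLC carry the limit from the listing given above. RARB had a log2 difference of -2.59 between d8 and d4 DZ+PGCLC (SE 0.18, adjusted p = 0.000326), so its rise over 4i ESC of 3.04 at day 4 was followed by 0.45 at day 8. Between d8 DZ+PGCLC and DM+PGCLC the log2 difference was -3.47 for CYP26A1 (adjusted p = 0.000718), -3.26 for DHRS3 (adjusted p = 0.000146), -2.38 for RARB (adjusted p = 4.5e-05) and -1.40 for STRA6 (adjusted p = 0.00144), each lower in both d8 DZ+PGCLC libraries than in both DM+PGCLC libraries. For ALDH1A2 it was 4.61 (adjusted p = 0.00199), higher in both.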

How the results depend on the processing

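Of the alternative values of the 7 genes, 412 kept their direction and their side of the threshold, 12 gained a call, 21 lost one and 3 turned direction. Turned were DHRS3 in N3+PGCLC against 4i ESC without the second N3+PGCLC library (from -0.38 to 0.22), and CRABP1 in DM+PGCLC against N3+PGCLC without the second N3+PGCLC library (from 0.26 to -0.11) or without the first DM+PGCLC library (to -0.27), none of them called. Over single libraries left out these ran from -0.97 to 0.22 and from -0.27 to 0.79. The fit on 4 libraries, with fewer samples, called 902 genes in place of 2531 and 0 of the 7 genes in place of 2 in N3+PGCLC against 4i ESC, 2 in place of 5 in d4 DZ+PGCLC against 4i ESC, and 685 in place of 2517 and 3 in place of 5 in DM+PGCLC against N3+PGCLC. In that fit of N3+PGCLC, 2 of the 7 had an unadjusted p under 0.05 in limma. Between d8 and d4 DZ+PGCLC a pseudocount of 1 called 1491 genes in place of 2299. There, 1 of the 7 was called, and 3 with low genes left out, 2 with equal medians, 2 with the replicate block and 2 in the fit on 4 libraries. Without 1 library the calls were 1607 to 2343 genes and 0 to 2 of the 7 in N3+PGCLC against 4i ESC, 3 to 4 of the 7 in d4 DZ+PGCLC against 4i ESC, 1634 to 2656 genes in DM+PGCLC against N3+PGCLC, and 1258 to 1924 genes and 1 to 2 of the 7 between d8 and d4 DZ+PGCLC. Where the fit does not itself have fewer samples or genes, the cause was not tested.

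Replicate numbers mark no stated shared source, and deviations of same-numbered libraries had a correlation of -0.129 to 0.10 across genes between groups, so the samples share only a number. With the replicate block 2439 genes were called in DM+PGCLC against N3+PGCLC, and 2528 with the crossed pairing, which also called 5 of the 7. Read counts per gene could not be recovered, so the counting error of low levels is unknown.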
